A study of Mus musculus with 10 samples.

Results

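BK channels are large-conductance potassium channels, and the 8 genes described here are the pore subunit Kcnma1 and 7 genes of its auxiliary subunits. They were taken by name from the 32531 gene rows measured: Kcnma1, the β subunit genes Kcnmb1, Kcnmb2 and Kcnmb4, and the γ subunit genes Lrrc26, Lrrc38, Lrrc52 and Lrrc55. All 8 had a row, 7 had at least 1 read in every library and 4 had a mean of at least 1 CPM (reads of a gene per 1e+06 reads assigned to genes in the library). The tissue was the medial habenula of adult mice of the Chat-EGFP/Rpl10a line DW167, a transgene that puts EGFP on the ribosomal protein Rpl10a in cells in which Chat, the gene of choline acetyltransferase, is active. Ribosomes were captured through EGFP (translating ribosome affinity purification, TRAP), so the values are ribosome-bound RNA of the tagged cells plus whatever untagged RNA came along. There were 5 libraries of the left habenula and 5 of the right, all of them pull-downs from the same line, with no treatment named, and the 2 sides were dissected separately. No unpurified input was analysed here, so enrichment in the tagged cells was not measured. Whether the 5 libraries per side are separate animals or pools is not stated in the labels, so p-values measure only the spread between these libraries, which may be technical.

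The BK pore opens on depolarisation and on a rise of calcium inside the cell, and the potassium current it carries shortens the action potential and limits calcium entry. Auxiliary subunits set how much calcium and voltage are needed: β1 is the smooth muscle subunit, β2 adds inactivation, and β4 is the main β subunit of neurons and slows the channel. The γ subunits are leucine-rich repeat proteins that shift opening towards more negative voltages, with Lrrc26 (γ1) having the largest effect, followed by Lrrc52 (γ2), Lrrc55 (γ3) and Lrrc38 (γ4). RNA levels do not measure how subunits are assembled in the membrane. Medial habenular neurons are spontaneously active cholinergic and peptidergic cells that project to the interpeduncular nucleus.

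Libraries held between 42488448 and 67942836 gene reads (median 64142990). The 9 markers of cholinergic medial habenular neurons were present in every library, at a sum of 4074 to 8389 CPM, with Chat itself at 84.5 to 195.5 CPM. Markers of other cells were present too, and they separated the libraries by replicate number rather than by side. In replicates 1 and 5 of both sides (4 libraries) the 12 astrocyte markers summed to 119.5 to 129.9 CPM and the 8 oligodendrocyte markers to 95.6 to 106.1 CPM. In replicates 2 to 4 (6 libraries) the sums were 453.8 to 1841 CPM and 385 to 1604 CPM, and all 20 genes were lower in each of the 4 libraries than in any of the 6. The neuron markers ran the other way, at 7960 to 8389 CPM in replicates 1 and 5 and 4074 to 6946 CPM in replicates 2 to 4. Replicates 1 and 5 of 1 side were also closer to each other than any other pair of libraries. Their chi-square per degree of freedom over genes with 100 to 500 reads was 2.16 for the left pair and 1.32 for the right pair, against 4.38 to 57.1 for the other pairs. They differed by more than counting noise and were kept as separate libraries, but whether they are repeat libraries of the same material was not tested. This split was seen in the data and is no group of the study, so the 2 sets of libraries are set side by side below as ranges, with no test of one against the other. Left and right replicates 2 to 5 shared a sequencing lane by number, per the labels, and replicates 1 were run on other lanes. In bulk libraries like these, fewer cells of a type and less RNA per cell cannot be told apart.

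Kcnma1, the pore, was among the most abundant transcripts of the pull-downs. It stood at 1929, 2048, 1856, 2185 and 1816 CPM in left replicates 1 to 5 and at 2072, 2284, 1474, 1312 and 2015 CPM in right replicates 1 to 5. The right side held both the highest library and the 2 lowest, and the left values fell inside the right range. Left libraries averaged 1967 ± 150 CPM and right libraries 1831 ± 416 CPM (SD, n = 5 per side). At no fewer than 55755 reads per library the counting error was at most 0.424%, far below the spread between libraries. The gene lies on chromosome 14 at 23289431 to 24014491 on the minus strand (GRCm38, GENCODE M21), with 38 annotated transcripts, which counts per gene do not separate. It shares 1016 exonic bases with 4930519K11Rik on the opposite strand, a gene of 104 to 350 reads per library.

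Lrrc55, the γ3 subunit gene, was as abundant as the pore in reads. It stood at 2220, 1643, 1232, 1357 and 2259 CPM in left replicates 1 to 5 and at 2284, 1825, 960.2, 1038 and 2389 CPM in right replicates 1 to 5. Replicates 1 and 5 of both sides, at 2220 to 2389 CPM, all lay above the other 6 libraries, at 960.2 to 1825 CPM, while the left range lay inside the right range. The share of all genes with such a split by replicate number was not counted. Left libraries averaged 1742 ± 478 CPM and right libraries 1699 ± 674 CPM (SD, n = 5 per side). Lrrc55 lies on chromosome 2 at 85162334 to 85197197 on the minus strand. It shares 210 and 266 exonic bases with the antisense genes Gm13713 and Gm13716. No source used here gives the strand setting of the counts, and no gene row measured carries the name of either antisense gene. In the shared bases reads from either strand may therefore have been counted for Lrrc55. They would have been set aside as ambiguous only if either antisense gene was counted under another name.

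Kcnmb4, the neuronal β4 subunit gene, was the most abundant β subunit transcript and far below both Kcnma1 and Lrrc55. It stood at 15.3, 15.9, 12.3, 13.8 and 13.8 CPM in left replicates 1 to 5 and at 17.0, 15.6, 10.7, 10.5 and 16.8 CPM in right replicates 1 to 5. As for Kcnma1, right replicates 3 and 4 were the lowest libraries, and the sides overlapped. Kcnmb2, the β2 subunit gene, had left values of 6.46, 8.11, 5.64, 5.68 and 5.79 CPM and right values of 5.88, 6.94, 5.999, 5.88 and 5.59 CPM. Its highest value was in left replicate 2 and the rest lay within a narrow band shared by the sides. Kcnmb4 (chromosome 10, 116417861 to 116473878, minus strand) shares 693 exonic bases with the antisense gene Kcnmb4os2, which had 28 to 172 reads per library, and Kcnmb2 (chromosome 3, 31902507 to 32200180, plus strand) shares none with another annotated gene.

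The remaining 4 genes had few reads, with a mean below 1 CPM. Lrrc26, the γ1 gene, had 31, 19, 18, 34 and 18 reads in the left libraries and 16, 11, 40, 1 and 14 in the right libraries. Lrrc38, the γ4 gene, had 8, 5, 17, 19 and 5 left reads and 5, 18, 21, 27 and 6 right reads. Right replicate 4 thus held the fewest reads of Lrrc26 and the most of Lrrc38. Lrrc52, the γ2 gene, had 3 reads in left replicate 2 and 0 in the other 9 libraries. A count of 0 allows up to 3 reads, which is 0.0442 to 0.0706 CPM at these depths, so Lrrc52 was not detectable rather than shown to be absent. The upper bound of the two-sided exact 95% interval of a count of 0 is wider, at 0.0543 to 0.0868 CPM over those 9 libraries. In right replicate 4 the single Lrrc26 read gives 0.0235 CPM with an exact (Clopper-Pearson) 95% interval of 0.000596 to 0.131 CPM. These intervals cover counting error only. In GRCm38, Lrrc26 lies on chromosome 2 at 25289915 to 25291180 (plus strand), Lrrc38 on chromosome 4 at 143349757 to 143371032 (plus strand) and Lrrc52 on chromosome 1 at 167445669 to 167466780 (minus strand).

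Kcnmb1, the smooth muscle β1 gene, followed the split by replicate number. It had 4, 27, 38, 69 and 6 reads in the left libraries and 2, 7, 54, 75 and 3 in the right libraries. Replicates 1 and 5 thus held 2 to 6 reads and the other 6 libraries 7 to 75 reads. The CPM of right replicate 2, at 0.107, was just under that of left replicate 5, at 0.108, and the other 5 libraries of replicates 2 to 4 were higher than both. The 7 markers of vascular smooth muscle and pericytes summed to 5.52 to 7.70 CPM in replicates 1 and 5 and to 10.3 to 38.1 CPM in replicates 2 to 4, with 4 of the 7 lower in each library of replicates 1 and 5. Cnn1, also among the 7, ran the other way with some overlap, at 3.54 to 4.42 CPM in replicates 1 and 5 and 1.57 to 3.68 CPM in replicates 2 to 4. The sum of the 7 was highest in right replicate 3, where Myh11, the myosin heavy chain of smooth muscle, reached 13.1 CPM. Kcnmb1 was highest in right replicate 4, at 1.77 CPM, where the sum of the 7 was 16.4 CPM. The astrocyte markers were also lower in replicates 1 and 5, and their sum was highest in left replicate 4 (1841 CPM), followed by right replicates 3 (1698 CPM) and 4 (1668 CPM). The marker sums of oligodendrocytes, microglia, endothelium and thalamic neurons were lower in replicates 1 and 5 too. The part of any of these cell types in the Kcnmb1 reads was not tested. Kcnmb1 (chromosome 11, 33963013 to 33973641, plus strand) lies within Kcnip1 on the opposite strand, a gene of 547 to 959.4 CPM with which it shares 0 exonic bases.

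**Figure D1:**
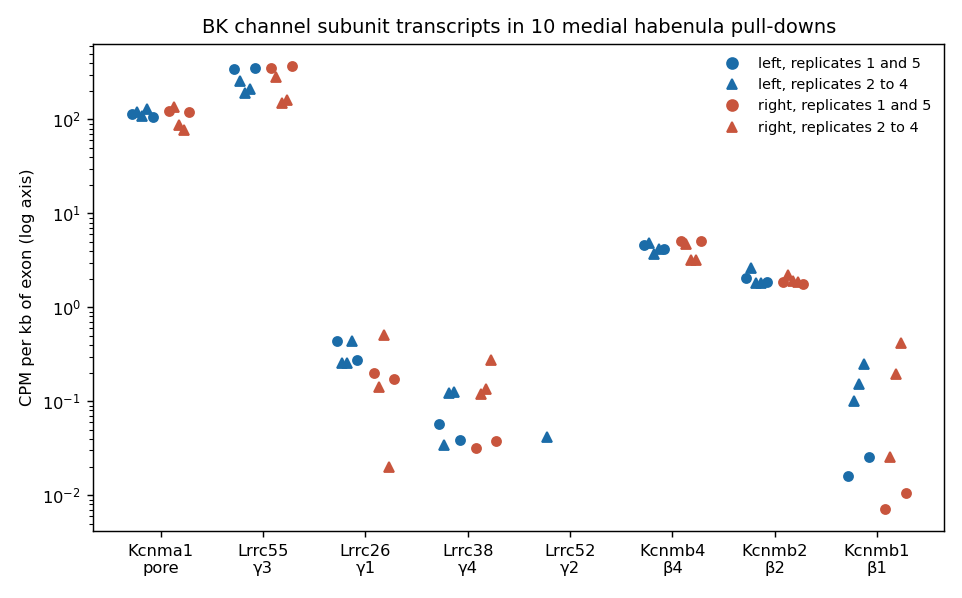
Level of the 8 BK genes in each library, in CPM per kb of annotated exon on a log axis, with left libraries in blue and right libraries in red. Circles are replicates 1 and 5 and triangles replicates 2 to 4. The 9 libraries with 0 reads of Lrrc52 cannot be drawn on a log axis and are left out. Lrrc55 lies above Kcnma1, and both lie far above Kcnmb4 and Kcnmb2.

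Levels of different genes were compared per length, as CPM per kb of the union of annotated exons, because longer transcripts give more reads. On this scale Lrrc55 stood at 266 ± 85.1 CPM per kb (SD over 10 libraries), Kcnma1 at 112 ± 17.9, Kcnmb4 at 4.26 ± 0.715 and Kcnmb2 at 1.98 ± 0.253. Lrrc26 followed at 0.270 ± 0.152, Kcnmb1 at 0.121 ± 0.137, Lrrc38 at 0.0978 ± 0.0754 and Lrrc52 at 0.00416 ± 0.0131 CPM per kb. The order Lrrc55, Kcnma1, Kcnmb4, Kcnmb2, Lrrc26 held in 10 of 10 libraries at every step, with ranges that did not overlap between neighbours. Below that the neighbours overlapped: Lrrc26 was above Kcnmb1 in 9 of 10 libraries and Kcnmb1 above Lrrc38 in 5 of 10. The order was the same with the longest coding transcript as the length. By mean CPM per kb, Lrrc55 ranked 59 and Kcnma1 226 of 23116 genes with an annotated length, while Kcnmb4 ranked 6763 and Kcnmb2 8947. The rank of Lrrc55 ran from 45 to 119 over the libraries and that of Kcnma1 from 156 to 338.

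Among auxiliary subunits, Lrrc55 made up nearly all of the RNA per kb. Its share of the 7 genes was 97.3% ± 0.731 (SD over 10 libraries), between 96.1% and 98.2%. Kcnmb4 held 1.65%, Kcnmb2 0.800%, Lrrc26 0.112%, Kcnmb1 0.0638%, Lrrc38 0.0474% and Lrrc52 0.00159%. The order of the first 3 did not change between libraries, since their levels per kb did not overlap.

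The ratio of an auxiliary subunit to the pore within a library needs no scaling between libraries. Lrrc55 reads per Kcnma1 read were 1.15, 0.802, 0.664, 0.621 and 1.24 in left replicates 1 to 5 and 1.102, 0.799, 0.652, 0.791 and 1.19 in right replicates 1 to 5. The 4 libraries of replicates 1 and 5 had more Lrrc55 than Kcnma1 reads and the other 6 had fewer. Per kb of exon this was 2.36 ± 0.636 Lrrc55 per Kcnma1 (SD over 10 libraries, 1.63 to 3.26), so on this scale Lrrc55 exceeded the pore in all 10. Which Kcnma1 transcripts were present was not measured, and a shorter length for Kcnma1 would lower this ratio. By side it averaged 2.35 ± 0.746 (left) and 2.38 ± 0.595 (right) (SD, n = 5). The left minus right difference of the mean log2 ratio was -0.04, with p = 0.897 in a two-sided exact permutation test of the side labels over the 10 libraries. By replicate number the difference was 0.06, 0.01, 0.03, -0.35 and 0.07, small in 4 of the 5 and lower on the left in replicate 4. The smallest p this permutation test allows is 0.00794, and the test does not take the split by replicate number into account.

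The β subunits kept to a low and narrower ratio to the pore. Per kb of exon there were 38.2 ± 3.57 Kcnmb4 per 1000 Kcnma1 (SD over 10 libraries, 32.4 to 42.7), averaging 37.0 ± 3.68 left and 39.4 ± 3.38 right. Kcnmb2 stood at 18.1 ± 3.41 per 1000 Kcnma1 (14.1 to 24.3), averaging 17.5 ± 2.69 left and 18.7 ± 4.25 right. Left replicate 4 had the lowest ratio of all 3 subunits to the pore, and right replicate 4 the highest of Kcnmb2. The log2 ratio differed between the sides by -0.09 for Kcnmb4 (p = 0.302, exact permutation test) and by -0.08 for Kcnmb2 (p = 0.690, exact permutation test), both left minus right. By replicate number the difference for Kcnmb2 was 0.24, 0.38, -0.42, -0.79 and 0.20, so its direction was not the same across replicates. For Kcnmb4 it was -0.05, 0.19, -0.13, -0.34 and -0.14. These were the 3 ratios tested, those of genes averaging 1 CPM or more, and no difference exceeded the spread between libraries.

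**Figure D2:**
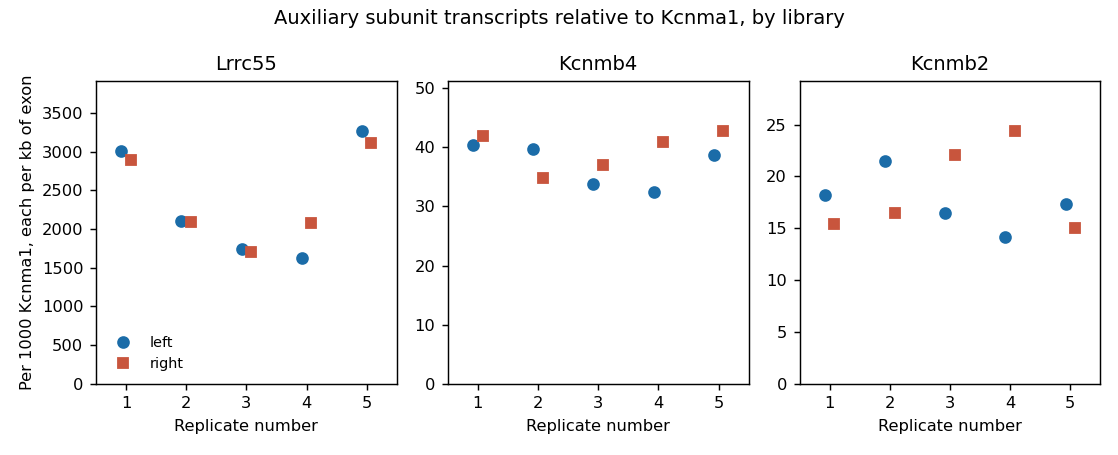
Lrrc55, Kcnmb4 and Kcnmb2 per 1000 Kcnma1, each per kb of exon, against replicate number, with left libraries as blue circles and right libraries as red squares. The Lrrc55 ratio lies between 2890 and 3262 in replicates 1 and 5 and between 1629 and 2104 in replicates 2 to 4 on both sides. Kcnmb4 lies between 32.4 and 42.7 and Kcnmb2 between 14.1 and 24.3.

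The 4 genes averaging 1 CPM or more were also set against the markers of the tagged neurons. This scale was chosen after the values were seen. Per 1000 reads of the 9 neuron markers, Lrrc55 had 232 to 293 reads, a 1.26-fold range over the 10 libraries against a 2.49-fold range in CPM. Kcnma1 had 228 to 414 reads per 1000 marker reads, a 1.81-fold range against a 1.74-fold range in CPM. In replicates 1 and 5 Kcnma1 had 228 to 247 and in replicates 2 to 4 it had 294 to 414, with no overlap. For Lrrc55 the replicates 1 and 5 had 267 to 293 and replicates 2 to 4 had 232 to 263, again with no overlap but in the opposite order. The summed astrocyte and oligodendrocyte markers were 216 to 236 CPM in the first set of libraries and 839 to 3413 CPM in the second, and those of thalamic neurons 230 to 270 CPM and 786 to 2147 CPM. The part of RNA from these cells in the Kcnma1 reads was not tested. Kcnmb4 behaved in the direction of Kcnma1, at 1.73 to 2.06 and 2.24 to 2.62 reads per 1000 marker reads. Kcnmb2 did too, at 0.686 to 0.778 and 0.999 to 1.47. The marker sum itself differed between the 2 sets, at 7960 to 8389 CPM and 4074 to 6946 CPM. A gene with an even CPM would therefore also separate on this scale, in the order of Kcnma1. In CPM the 2 sets overlapped for Kcnma1, at 1816 to 2072 and 1312 to 2284. They also overlapped for Kcnmb4, at 13.8 to 17.0 and 10.5 to 15.9, and for Kcnmb2, at 5.59 to 6.46 and 5.64 to 8.11. The share of all genes that separate on this scale was not counted.

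**Figure D3:**
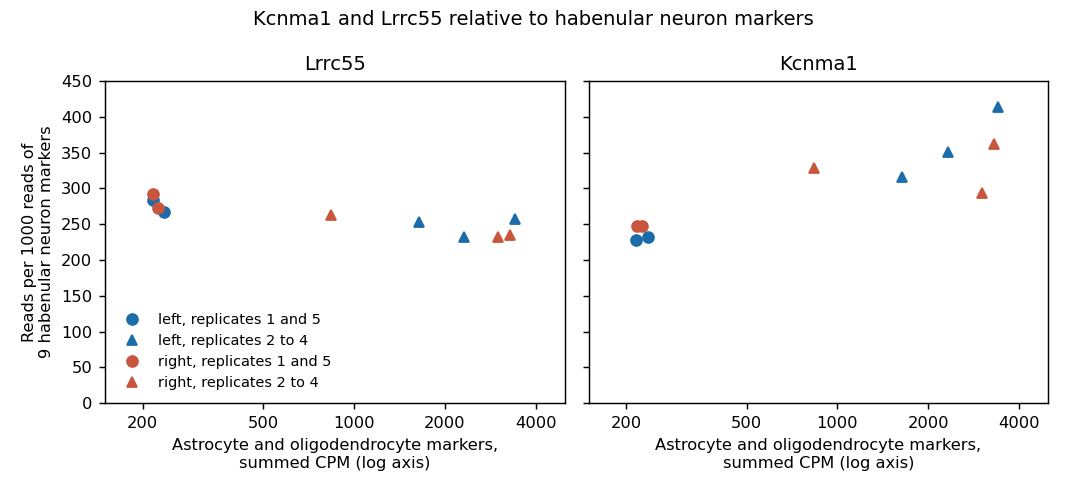
Reads of Lrrc55 and Kcnma1 per 1000 reads of 9 habenular neuron markers, against the summed CPM of 20 astrocyte and oligodendrocyte markers on a log axis, with 1 point per library. Blue is left and red right, circles are replicates 1 and 5 and triangles replicates 2 to 4. Lrrc55 stays between 232 and 293, while Kcnma1 lies at 228 to 247 in the 4 libraries with few glial reads and at 294 to 414 in the other 6. The marker sum itself is lower in those 6 libraries.

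The genes whose levels ran most like each member across libraries were found by the root mean square difference of log2 CPM over the 10 libraries, each gene centred on its own mean, among 8960 genes averaging 10 CPM or more. For Kcnma1 they were Bmp7 (0.06), Gatc (0.07), 2210015D19Rik (0.07) and Ikzf4 (0.07), against a median of 0.32 over all genes. For Kcnmb4 they were Lppr1 (0.05), Cdh8 (0.06), Mbd4 (0.07) and Lrp11 (0.07), against a median of 0.30. For Lrrc55 they were Amigo2 (0.06), Amn1 (0.07), Fam19a1 (0.08) and Sostdc1 (0.09), against a median of 0.43. Kcnma1 and Kcnmb4 lay 0.13 apart on this measure, while Lrrc55 lay 0.37 from Kcnma1 and 0.28 from Kcnmb4. The measure describes these libraries, which share the split by replicate number.

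The promoters of the 3 most abundant of the 8 BK genes per kb are shown for their base composition. No link between promoter sequence and level was tested. Each is the RefSeq sequence from 250 bases before to 50 bases after the annotated start (GRCm38.p6), 5′ to 3′ on the strand of the gene, at chr14:24004156-24004455 for Kcnma1, chr10:116473474-116473773 for Kcnmb4 and chr2:85198701-85199000 for Lrrc55, all on the minus strand. Capitals mark the letters GGGCGG on either strand, the core of a GC box, including sites that overlap.
Kcnma1: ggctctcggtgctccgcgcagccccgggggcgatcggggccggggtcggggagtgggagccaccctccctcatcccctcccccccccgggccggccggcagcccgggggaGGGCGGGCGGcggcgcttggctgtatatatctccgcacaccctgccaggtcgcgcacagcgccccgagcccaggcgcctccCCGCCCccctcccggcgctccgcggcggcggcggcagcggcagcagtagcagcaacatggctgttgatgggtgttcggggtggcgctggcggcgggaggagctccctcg
Kcnmb4: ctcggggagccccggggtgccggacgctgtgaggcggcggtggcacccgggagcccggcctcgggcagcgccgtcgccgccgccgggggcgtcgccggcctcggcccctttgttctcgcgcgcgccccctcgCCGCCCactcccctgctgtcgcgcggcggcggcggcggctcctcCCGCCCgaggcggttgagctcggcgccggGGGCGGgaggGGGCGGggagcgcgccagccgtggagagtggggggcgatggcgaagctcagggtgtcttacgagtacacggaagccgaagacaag
Lrrc55: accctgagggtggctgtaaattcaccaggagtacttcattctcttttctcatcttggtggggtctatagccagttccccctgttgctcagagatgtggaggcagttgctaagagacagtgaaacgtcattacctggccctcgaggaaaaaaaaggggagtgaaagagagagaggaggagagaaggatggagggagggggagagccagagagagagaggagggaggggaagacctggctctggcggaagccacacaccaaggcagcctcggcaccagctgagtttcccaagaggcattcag
Kcnma1 held 3 GGGCGG sites and 36 CpG dinucleotides, and Kcnmb4 4 sites and 48 CpG. Lrrc55 held 0 sites and 4 CpG, below the median of 7 over 32851 promoters of the same length. GGGCGG was present in 35.7% of those promoters. The letters CCAAT, searched on both strands and present in 37.4% of promoters, and TATAAA, present in 13.6%, were in none of these 3 windows. All 8 members had a promoter in the table, and the other CpG counts were 12 for Lrrc38, 9 for Kcnmb2, 6 for Lrrc52, 3 for Lrrc26 and 1 for Kcnmb1. A match describes these letters in this window and is not a binding site, and the RefSeq start of Lrrc55 lies outside the gene as GENCODE M21 annotates it.

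No BK gene passed the test between the left and right habenula in the 10 libraries. In the edgeR quasi-likelihood test with Benjamini-Hochberg adjustment, 0 of 16250 genes tested passed an adjusted p of 0.05 (0%), 90 had an unadjusted p under 0.05, and the DESeq2 Wald test called 0, with 141 at an unadjusted p under 0.05. Of the 8 members 7 passed the filter on low counts and 0 were called, at a median log2 fold change (left minus right) of 0.02 against -0.01 over all genes tested. Kcnma1 differed by 0.09 (SE 0.14, 95% interval -0.23 to 0.40), Kcnmb4 by -0.01 (-0.35 to 0.34) and Kcnmb2 by 0.04 (-0.26 to 0.34). The interval was wider for Lrrc55, at 0.02 (-0.62 to 0.67). With a term for replicate number in the fit, Lrrc55 differed by 0.07 (-0.13 to 0.27). The rare transcripts had the widest intervals, at 0.62 (-0.71 to 1.96) for Lrrc26, -0.68 (-2.16 to 0.81) for Lrrc38 and -0.31 (-2.82 to 2.19) for Kcnmb1, so that differences of several fold would not have been detectable. The adjusted p was 0.999992 for each of the 7 in the edgeR fit without that term.

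Within the 4 libraries of replicates 1 and 5, Kcnma1 was called higher on the right. The left libraries had 1929 and 1816 CPM and the right ones 2072 and 2015 CPM. The log2 fold change was -0.13 (95% interval -0.20 to -0.05, adjusted p = 0.0480 in edgeR). In that comparison 1992 of 15569 genes were called (12.8%), of which 1099 were higher on the right (7.06% of the genes tested), so 1 call among the 5 members tested there lies near the background. Kcnmb4, at -0.22, had an adjusted p of 0.0615 in edgeR, Lrrc26, at 0.93, one of 0.0901, Lrrc55, at -0.06, one of 0.397 and Kcnmb2, at 0.10, one of 0.465. The 2 libraries of a side are the closest pairs in the series, at a chi-square per degree of freedom of 2.16 (left) and 1.32 (right), and the fit takes its spread from them. If they were repeat libraries of the same material, there would be 1 sample per side and these adjusted p-values and counts of calls would measure technical spread only. In the 6 libraries of replicates 2 to 4, 0 of 16809 genes were called (0%), with 72 at an unadjusted p under 0.05 in edgeR. Kcnma1 there ran the other way, at 0.25 (-0.26 to 0.75).

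**Figure D4:**
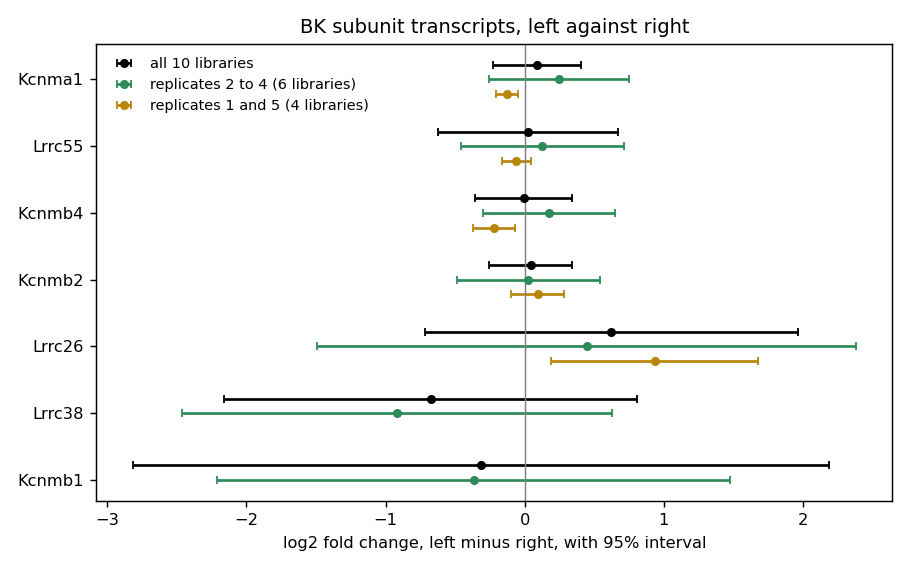
Log2 fold change, left minus right, of the 7 BK genes tested, with 95% intervals from edgeR, in all 10 libraries (black), in replicates 2 to 4 (green) and in replicates 1 and 5 (yellow). With all libraries every interval includes 0, and the 3 rare transcripts have the widest ones, up to -2.82 to 2.19 for Kcnmb1. Lrrc38 and Kcnmb1 were not tested in replicates 1 and 5.

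Genes of related potassium channels, of calcium channels and of BK regulators were measured from lists chosen for their function. In the same test none was called between the sides. Of 7 other genes of the family of calcium- and sodium-activated potassium channels 6 were tested, 5 with a higher and 1 with a lower fitted level on the left (median log2 fold change 0.02). The most abundant were Kcnn3, a small-conductance calcium-activated channel, at 131 ± 13.9 CPM (left) and 128 ± 3.57 CPM (right), and its relative Kcnn2, at 23.1 ± 1.40 and 22.2 ± 2.88 CPM. Of the 8 voltage-gated calcium channel pore genes, which supply calcium to BK channels, all were tested (median 0.03). Cacna1e, the pore of R-type channels, led at 937 ± 43.8 and 891 ± 120 CPM, and Cacna1c, an L-type pore, followed at 164 ± 68.6 and 153 ± 58.3 CPM. Per kb of exon Cacna1e stood at 36.2 CPM per kb, below Kcnma1. Of 6 calcium release channel genes (median 0.04), Itpr1, an inositol trisphosphate receptor, stood at 143 ± 118 and 139 ± 126 CPM and Ryr2, a ryanodine receptor, at 124 ± 37.3 and 125 ± 41.1 CPM. Itpr1 ranged from 24.03 to 28.5 CPM in replicates 1 and 5 and from 93.5 to 287.6 CPM in replicates 2 to 4. Cacna1c was also lower in replicates 1 and 5, at 92.3 to 97.6 against 148 to 251 CPM. So was Ryr2, at 90.5 to 99.3 against 103 to 196 CPM. Prkacb, named below, was higher there, at 939 to 1100 against 715 to 886 CPM. For Kcnn3, Kcnn2, Cacna1e and Prkaca the ranges overlapped, as for Cacna1e at 892 to 966 against 752 to 1029 CPM. The share of all genes without overlap was not counted, and the source of these reads was not tested. Of 9 regulators and further subunits 8 were tested (median -0.01), led by the catalytic subunits of protein kinase A, Prkacb at 869 ± 160 and 868 ± 108 CPM and Prkaca at 277 ± 27.2 and 270 ± 21.4 CPM. Kcnmb3, the β3 subunit gene, which is no member of the 8, had 0 to 12 reads and did not pass the filter on low counts in the 10 libraries. Without the filter it differed by -0.51 (95% interval -2.43 to 1.41), and in replicates 1 and 5 alone by -1.26 (adjusted p = 0.101 in edgeR).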

How the data were processed

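The deposited values were raw read counts per gene, 1 table per library, which the authors made with STAR 2.0.0e and HTSeq on the build mm10, per the submitters' processing notes. No source used here gives the annotation, filters or strand setting. The 6 rows that name no gene stayed out of library sizes: reads in no gene were 13.6% to 18.9% and ambiguous reads 2.25% to 2.81%. Reads counted as ambiguous are not in the gene counts, and which overlaps this touches depends on the annotation and strand setting. CPM was computed from gene totals without a scaling factor. Sides were taken from the sample titles and compared with edgeR 4.0.16 in R 4.3.3 (TMM, filterByExpr by side at 10 counts, robust quasi-likelihood F test, two-sided, side as the only term, Benjamini-Hochberg adjusted p under 0.05). DESeq2 1.42.0 was an alternative. Ratios of reads were compared by an exact permutation test written out in Python, and the exact intervals of counts came from scipy 1.17.1. Gene lengths and loci came from GENCODE M21, matched by name for 23116 gene rows. Promoters were RefSeq's (GRCm38.p6). Alternatives were other scaling, no filter, a replicate block, a covariate for the level of glial markers, leaving out libraries, replicates 1 and 5 summed or alone, replicates 2 to 4 alone, and other gene lengths. Named genes were all members and the 2 most abundant tested genes of each list besides any called. The 4 genes most like each member averaging 10 CPM or more were also named. Other genes in the text are markers. The ranges of genes of the lists by replicate number, Kcnip1, the antisense genes and Kcnmb3 were added after values were seen. The members and lists were chosen with earlier results of these data known.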

Additional observations from a re-analysis of the deposited data

Results flagged for a closer look

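Lrrc52, the γ2 gene, stood at 0.0475 CPM in left replicate 2, from 3 reads, and at 0 in the other 4 left libraries, so that 1 sample stood apart from the others of its side. With 4 libraries at 0 any count above 0 stands apart in this way, and a count of 0 allows 3 reads in each of them. Of 24 groups of 5 libraries looked at in this way, 1 stood out, and chance alone gives about 1 in 20. The exact 95% interval of this value is 0.00980 to 0.139 CPM.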

How the results depend on the processing

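No gene was called between the sides under any alternative except replicates 1 and 5 alone, which called 1992. The main fit did not take the replicate numbers as pairs. The deviations of same-numbered libraries correlated at 0.860, 0.0962, 0.806, 0.715 and 0.873, with number 2 far below the others. Not every library was most like the one of its own number. Numbers 2 to 5 do share a lane across the sides. With the replicate block, which then also holds the lane for those numbers, 0 genes were called, and 297 had an unadjusted p under 0.05 against 90 without it. Of the refitted log2 fold changes of members, 110 kept their direction and 21 reversed, and of these only Kcnma1 in replicates 1 and 5 alone, at -0.13, passed the threshold. The cause of the reversals was not tested. The block narrowed the 95% interval of Lrrc55 from -0.62 to 0.67 without it to -0.13 to 0.27, and that of Kcnmb1 from -2.82 to 2.19 to -0.79 to 1.44. Other reversed values were 0.33 for Kcnmb1 with the replicate block and 0.086 with the glial covariate, -0.060 for Lrrc55 in replicates 1 and 5 alone, and for Kcnmb4 0.011 with library totals, 0.014 with the replicate block, 0.014 with the glial covariate, 0.063 with replicates 1 and 5 summed and 0.17 in replicates 2 to 4 alone. Leaving out each library in turn moved Kcnma1 from -0.00051 to 0.16, Kcnmb1 from -0.86 to 0.86, Kcnmb2 from -0.059 to 0.091, Kcnmb4 from -0.084 to 0.069 and Lrrc55 from -0.12 to 0.18. For Lrrc26 the range was 0.36 to 1.27, the highest without right replicate 3, where the adjusted p in edgeR was still 0.999841. For Lrrc38 it was -0.93 to -0.10, the smallest without right replicate 4.

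The side difference of the log2 ratio to Kcnma1 reversed in replicates 1 and 5 alone, to 0.22 for Kcnmb2 and 0.066 for Lrrc55. Leaving out each library moved it from -0.15 to 0.025 for Kcnmb2 and from -0.17 to 0.081 for Lrrc55, with no exact p under 0.05. The ratios per 1000 Kcnma1 depend on the length used. With the longest coding transcript they were 66.2 for Kcnmb4 and 13.8 for Kcnmb2, and with no length correction 7.48 and 3.33, and 901 for Lrrc55, below the pore. In replicates 1 and 5 alone Lrrc55 stood at 3069 per 1000 Kcnma1. Depth limits Lrrc26, Lrrc38, Kcnmb1 and Lrrc52, with at most 75 reads in a library.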
